A study of Mus musculus with 8 samples.

Results

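The circadian clock of the liver was examined through 10 genes of its core loop and its direct output, named by symbol: Arntl, Clock, Npas2, Per1, Per2, Per3, Cry1, Nr1d1, Dbp and Nfil3. Of these, 9 had a row among the 20894 genes of the deposited count table and 7 had enough counts to be tested. The expression of Per3 was not analysed here. The samples were livers of wild-type mice injected with an adeno-associated virus of serotype AAV8, which enters liver cells. The viral transgene was POLR2G, a subunit of RNA polymerase II, in 4 libraries and green fluorescent protein (GFP) in the 4 control libraries. In both groups the transgene was driven by TBG, a promoter active mainly in hepatocytes, and all animals were killed after fasting during the day. Age, sex and hour of collection were not given in the sources used here.

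The clock of a mammalian cell is a feedback loop of transcription factors. ARNTL (also called BMAL1) pairs with CLOCK or NPAS2 and binds E-boxes in the genes of its own repressors, the PER and CRY proteins, and in Nr1d1 and Dbp. NR1D1 (REV-ERB alpha) in turn represses Arntl, Npas2, Cry1 and Nfil3 through sites it shares with the ROR activators, while DBP activates and NFIL3 represses genes that carry a D-box. In mouse liver the transcripts of Nr1d1, Dbp and the Per genes peak in the light phase or at its end, and those of Arntl, Npas2 and Nfil3 peak at the opposite time. Per1 is also known to be induced directly by glucocorticoids and by cAMP signalling, both of which change with fasting.

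Letters of these elements were looked for in the sequences from 250 bases before to 50 bases after their transcription starts (RefSeq, GRCm38.p6). The windows below hold the matched letters in capitals with up to 20 bases on each side, 5′ to 3′ on the strand of the gene. They are shown because they hold letters of the elements named above, and are not all the matches: both E-box (CACGTG) matches, in Per1 and Cry1, the E-box-like CACGTT in Nr1d1, the ROR core site AGGTCA in Arntl and Nfil3, and TGACG, the core of the cAMP element, in a second Per1 promoter. CACGTT was also found in Cry1, AGGTCA in a Clock and the first Per1 promoter, and TGACG in Cry1, Nfil3 and the first Per1 promoter.
Per1 (chr11:69098763-69098808, plus strand): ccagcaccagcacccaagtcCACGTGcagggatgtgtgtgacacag
Cry1 (chr10:85185089-85185134, minus strand): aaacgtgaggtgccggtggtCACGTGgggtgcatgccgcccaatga
Nr1d1 (chr11:98775380-98775425, minus strand): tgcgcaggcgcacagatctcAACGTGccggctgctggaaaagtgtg
Arntl (chr7:113207522-113207560, plus strand): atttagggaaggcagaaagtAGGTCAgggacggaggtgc
Nfil3 (chr13:52981026-52981071, minus strand): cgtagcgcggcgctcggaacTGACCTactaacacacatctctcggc
Per1, second start (chr11:69100000-69100044, plus strand): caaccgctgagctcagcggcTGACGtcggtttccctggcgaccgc
In Nr1d1 and Nfil3 the capitals are the motif as read on the other strand. Both strands of 13 promoters of 9 of the genes were searched; no promoter of Per2 was at hand. CACGTG was found in 2 of the 13, against 7.15% of all 32851 promoters in the table, and CACGTT in 2, against 4.68%. AGGTCA was found in 4, against 16.3%, and TGACG in 4, against 20.8%, with no full TGACGTCA, which 1.79% of all promoters hold. The D-box, searched as TTATGTAA and TTACGTAA, was found only in the Per3 promoter, at 2 positions, against 1.06% of all promoters. TGACG is contained in TGACGTCA, and a match describes these letters and is not evidence of binding.

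RNA was measured by strand-specific sequencing of poly-A RNA. Library totals were 16362899 to 22165491 estimated counts in the POLR2G libraries and 14159056 to 18865284 in the GFP control libraries. Polr2g itself had 38649 to 54553 counts in the POLR2G libraries and 213 to 258 in the GFP control libraries, so each library matched its group. One POLR2G column carries a number that the labels do not list, and it is called the unnumbered POLR2G library. The hepatocyte markers together measured 111494 to 124811 CPM in the POLR2G and 117970 to 139789 CPM in the GFP control libraries. Kupffer cell markers summed to 252 to 432 CPM in the POLR2G and 227 to 348 CPM in the GFP control libraries, and the ranges of endothelial, stellate, bile duct, lymphocyte and neutrophil markers overlapped between the groups too. CPM is the count scaled to library size, with TMM factors between libraries. Nothing in the labels links a library to one mouse, so a p-value here reflects only how far these libraries spread, in part perhaps for technical reasons. The labels give no batch or date.

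None of the 7 clock genes tested was called different in the POLR2G livers (edgeR quasi-likelihood test, adjusted p under 0.05). A gene that was not called is not thereby shown to be unchanged. Over all 10390 genes tested, 4 passed, which is 0.0385%, with 0.0192% higher and 0.0192% lower. At an unadjusted p under 0.05 edgeR gave 1 of the 7, Nfil3, against 862 genes or 8.3% of all tested (4.1% lower in POLR2G), and DESeq2 and limma-voom called none of the 7 after adjustment. DESeq2 called 135 genes, or 1.41% of the 9577 it gave an adjusted p, and limma-voom 3, or 0.0289%. The exact permutation test gave none of the 7 and 5.51% of all. With 4 libraries in each group it gives a p under 0.05 only where the groups do not overlap, so the overlap is the same result. The libraries of the 2 groups overlapped for all 7, while they were apart for 5.51% of all genes tested, 2.68% with POLR2G lower. The median log2 fold change of the 7 was −0.12, against −0.0031 over all genes tested, with 2 higher and 5 lower means. In tissue RNA, fewer cells of a type and less RNA per cell cannot be told apart. For the genes with several annotated coding transcripts (Arntl, Clock, Per1 and Dbp among the 7, and Npas2 and Cry1), it is not known whether the deposited gene value covers all of them. The table lists Actb, which has several too and is abundant in most tissues, at 0 to 12 counts in POLR2G libraries and 0 to 29 in GFP control libraries. The same limit holds for any gene of the lists below that has several, and so for the counts and medians over those lists.

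**Figure D1:**
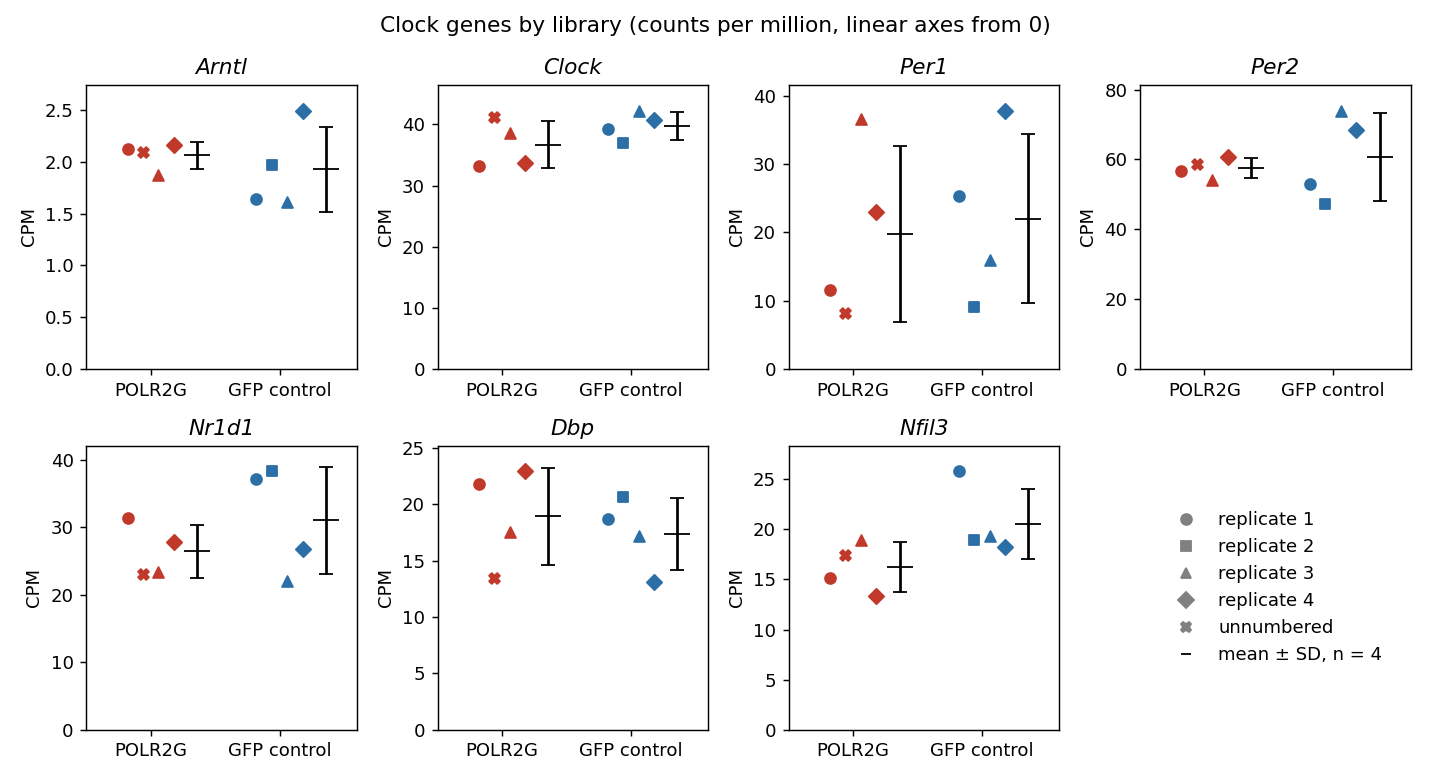
CPM of the 7 tested clock genes in each library, with POLR2G (red) left of GFP control (blue), the marker shape giving the replicate number, and mean ± SD (n = 4) beside each group; axes are linear from 0. The groups overlap in every panel, and Per1 spreads from 8.15 to 36.7 CPM in POLR2G and from 9.05 to 37.8 CPM in GFP control libraries.

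For the activator genes no difference was resolved. Clock (ENSMUSG00000029238; GRCm38 chromosome 5, 76209868 to 76304792, minus strand) encodes the larger partner of the E-box-binding pair and has 3 annotated coding transcripts. It measured 33.2, 41.1, 38.6 and 33.6 CPM in POLR2G replicate 1, the unnumbered library and replicates 3 and 4, against 39.2, 36.9, 42.2 and 40.7 CPM in GFP control replicates 1 to 4. POLR2G replicates 1 and 4 lay below all GFP control libraries, and the other two POLR2G libraries lay within their range. The log2 fold change was −0.12 (SE 0.0889, edgeR adjusted p = 0.789; exact permutation p = 0.229). The 95% interval of the POLR2G to GFP control ratio ran from 0.803 to 1.06, the narrowest of the 7. With 1 library left out the log2 fold change was −0.073 without POLR2G replicate 1, −0.078 without POLR2G replicate 4 and −0.18 without the unnumbered POLR2G library.

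Arntl (ENSMUSG00000055116; chromosome 7, 113207465 to 113314126, plus strand), the obligate partner of CLOCK, had few counts. It had 44, 35, 32 and 38 counts in the POLR2G libraries, in the same order as above, against 29, 34, 25 and 46 counts in GFP control replicates 1 to 4. In CPM this was 2.06 ± 0.130 in the POLR2G and 1.93 ± 0.410 in the GFP control libraries (SD, n = 4 each), and all 4 POLR2G libraries lay inside the GFP control range. The log2 fold change was 0.096 (SE 0.252, edgeR adjusted p = 0.958; exact permutation p = 0.486), with a 95% interval of the ratio from 0.722 to 1.58. In log2 terms it was at 0.026 without GFP control replicate 1, 0.019 without GFP control replicate 3 and 0.24 without GFP control replicate 4. Its spread within groups, 0.206 on the log2 scale, was below the 0.247 that counting error alone gives at these depths, so differences between single libraries are not readable for this gene.

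Npas2 (ENSMUSG00000026077; chromosome 1), the paralog that can replace CLOCK, had 0, 2, 0 and 3 counts in the POLR2G libraries and 1, 1, 2 and 1 in the GFP control libraries. That is 5 counts in each group and at or below 3 counts in every library, so no fold is given, and a difference was not detectable from so few counts of the transcripts that the table covers. Cry1 (ENSMUSG00000020038; chromosome 10, 85131700 to 85185064, minus strand), which encodes the repressor that works with PER proteins and has 2 annotated coding transcripts, was listed at 0 in all 8 libraries. A count of 0 allows up to 3 counts, or 0.145 to 0.180 CPM in a POLR2G and 0.163 to 0.193 CPM in a GFP control library, for the transcripts that the table covers. Such limits cover counting error only.

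Among the repressors, Per1 (ENSMUSG00000020893; chromosome 11, 69095217 to 69109960, plus strand) varied most between libraries. It measured 11.5, 8.15, 36.7 and 23.0 CPM in the POLR2G libraries against 25.3, 9.05, 15.99 and 37.8 CPM in the 4 GFP control libraries. Each group thus held libraries with high and with low Per1, with a highest to lowest ratio of 4.50 within the POLR2G and 4.18 within the GFP control libraries. On the log2 scale its spread within groups was 0.926, against a median of 0.182 over the 1632 tested genes whose mean level lay within 0.5 log2 units of it, and 99.6% of those genes spread less. Counting error alone gives 0.0879 for Per1. The means, 19.8 ± 12.9 CPM in POLR2G and 22.03 ± 12.4 CPM in GFP control libraries, gave a log2 fold change of −0.16 (SE 0.517, edgeR adjusted p = 0.970; exact permutation p = 0.743). The 95% interval of the ratio, 0.401 to 2.01, means that changes of either sign within it were not detectable. Its direction rested on single libraries: the log2 fold change was 0.035 without POLR2G replicate 1, 0.10 without the unnumbered POLR2G library and 0.24 without GFP control replicate 4.

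Per2 (ENSMUSG00000055866; chromosome 1, 91415982 to 91459324, minus strand), which has 1 annotated coding transcript, was steadier than Per1. Its spread within groups was 0.221 on the log2 scale, and 83.8% of the tested genes of like level spread less. The same share was 89.3% for Nr1d1, 84.0% for Dbp, 66.5% for Nfil3, 37.4% for Clock and 3.32% for Arntl. Per2 measured 56.8, 58.8, 54.0 and 60.8 CPM in the POLR2G libraries against 52.9, 47.2, 74.0 and 68.3 CPM in GFP control replicates 1 to 4. All POLR2G libraries lay inside the GFP control range, which was split into a lower and a higher pair. The log2 fold change was −0.073 (SE 0.136, edgeR adjusted p = 0.936; exact permutation p = 0.771), the 95% interval of the ratio ran from 0.770 to 1.17, and the log2 fold change was 0.036 without GFP control replicate 3.

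Nr1d1 (ENSMUSG00000020889; chromosome 11, 98767932 to 98775333, minus strand), the nuclear receptor that represses Arntl, had 31.3, 23.1, 23.4 and 27.8 CPM in the POLR2G libraries against 37.1, 38.2, 21.99 and 26.8 CPM in GFP control replicates 1 to 4. GFP control replicates 1 and 2 were the highest of the 8 and replicate 3 the lowest, with all POLR2G libraries in between. The log2 fold change was −0.23 (SE 0.183, edgeR adjusted p = 0.803; exact permutation p = 0.400), and the ratio's 95% interval was 0.639 to 1.13. Leaving out a library gave −0.14 without GFP control replicate 1, −0.12 without GFP control replicate 2 and −0.37 without GFP control replicate 3, where the unadjusted edgeR p was 0.0450 and the edgeR adjusted p 0.546. The gene overlaps Thra on the other strand. For the transcripts that the table covers, Thra had at most 1 count in a POLR2G and 0 in a GFP control library. Whether reads of Thra add to the value of Nr1d1 was not tested.

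The output regulators act on the same D-box with opposite sign. Dbp (ENSMUSG00000059824; chromosome 7, 45705088 to 45710203, plus strand), the activator, had 21.8, 13.5, 17.5 and 22.9 CPM in the POLR2G libraries against 18.7, 20.6, 17.2 and 13.1 CPM in GFP control replicates 1 to 4. POLR2G replicates 1 and 4 lay above all GFP control libraries, and the unnumbered POLR2G library was close to the lowest of all. The log2 fold change was 0.12 (SE 0.190, edgeR adjusted p = 0.922; exact permutation p = 0.571), with a 95% interval of the ratio from 0.810 to 1.46. On the log2 scale this was 0.048 without POLR2G replicate 1, 0.019 without POLR2G replicate 4 and 0.0079 without GFP control replicate 4. It was 0.25 without the unnumbered POLR2G library and 0.22 without GFP control replicate 2. Dbp overlaps Sphk2 on the other strand, which measured 28.4 ± 3.69 CPM in POLR2G and 30.3 ± 2.89 CPM in GFP control libraries, and whether strand was used in counting is not given in the sources used here.

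Nfil3 (ENSMUSG00000056749; chromosome 13, 52967209 to 52981073, minus strand), the D-box repressor, has a single annotated transcript and came closest to a difference. It had 15.2, 17.4, 19.0 and 13.3 CPM in the POLR2G libraries against 25.8, 18.9, 19.3 and 18.2 CPM in GFP control replicates 1 to 4. Of the POLR2G libraries 3 lay below all GFP control libraries, and POLR2G replicate 3 lay among them. The mean was 1.27-fold lower, at 16.2 ± 2.48 CPM in POLR2G and 20.6 ± 3.51 CPM in GFP control libraries (log2 fold change −0.34, SE 0.149). The unadjusted edgeR p was 0.0452, the edgeR adjusted p 0.585 and the exact permutation p 0.0857, where 4 against 4 libraries allow no p below 0.0286. The 95% interval of the ratio was 0.626 to 0.994. GFP control replicate 1 held the highest value, and without it the log2 fold change was −0.21 with an unadjusted edgeR p of 0.138. The unadjusted p was likewise above 0.05 without POLR2G replicate 1 (0.100), the unnumbered POLR2G library (0.0522), POLR2G replicate 4 (0.118) or GFP control replicate 3 (0.0535).

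**Figure D2:**
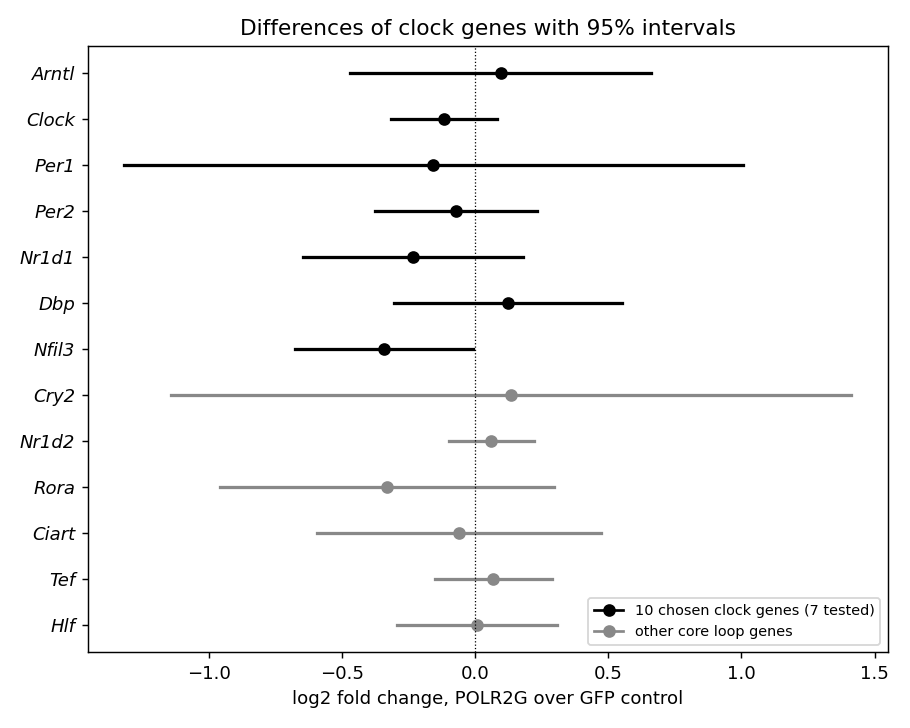
Log2 fold change of POLR2G over GFP control with its 95% interval from the edgeR fit, for the 7 tested clock genes (black) and 6 other core loop genes (grey). All intervals but that of Nfil3 include 0, and Clock and Nr1d2 have the narrowest ones.

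Levels can be set in order per length, as CPM per kilobase of the longest annotated coding transcript, for the transcripts that the table covers. In the POLR2G libraries Dbp (10.3 ± 2.34), Per2 (9.88 ± 0.494), Nr1d1 (9.70 ± 1.44) and Nfil3 (8.01 ± 1.23) stood at the top and overlapped with their neighbours. In the GFP control libraries the same 4 led as Nr1d1 (11.4 ± 2.91), Per2 (10.4 ± 2.16), Nfil3 (10.1 ± 1.73) and Dbp (9.46 ± 1.74), again overlapping. Per1 followed with 4.25 ± 2.76 in POLR2G and 4.72 ± 2.66 in GFP control libraries, and Clock with 3.76 ± 0.398 and 4.08 ± 0.233 CPM per kilobase in the same groups. Arntl was apart from them, at 0.694 ± 0.0438 in POLR2G and 0.648 ± 0.138 in GFP control libraries. Its highest library of all was at 0.838, against 1.74 for the lowest of Per1 and 3.41 for the lowest of Clock. The libraries of Per1 overlapped with those of Clock in both groups.

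The genes were next compared with each other across the 8 libraries. Over the 21 pairs of tested genes, 0 passed after adjustment over the pairs, by Pearson or by Spearman correlation. At an unadjusted exact p under 0.05, 1 pair passed by Pearson and 3 by Spearman. Clock with Dbp passed by both, and its Pearson r was −0.82 (exact permutation p = 0.0165, adjusted p = 0.347) and Spearman rho −0.86 (exact permutation p = 0.0107, adjusted p = 0.161). The r was −0.67 without the 2 libraries farthest from the Clock median, and −0.85 for deviations from the group means. POLR2G replicates 1 and 4 had the lowest Clock and the highest Dbp of the 8, and within the GFP control libraries replicate 2 had the lowest Clock and the highest Dbp.

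The other two pairs that passed by Spearman were Per2 with Nr1d1 and Arntl with Nfil3. Per2 with Nr1d1 gave a negative relation (r −0.70, exact permutation p = 0.0558, adjusted p = 0.502; rho −0.74, exact p = 0.0458, adjusted p = 0.321). Its r was −0.31 without the 2 libraries farthest from the Per2 median, so the relation rested on those, and −0.80 for deviations from the group means. Arntl with Nfil3 (r −0.62, exact permutation p = 0.0955, adjusted p = 0.502; rho −0.83, exact p = 0.0154, adjusted p = 0.161) rested on the outer libraries too, with r −0.23 without the 2 farthest and −0.60 for deviations from the group means. No relation with Arntl can be read further, since its spread between libraries was below counting error. With that limit, Arntl and Nr1d1, repressed gene and repressor, gave r −0.039 (exact permutation p = 0.924; rho 0.17, exact p = 0.703). Nr1d1 and Dbp, both E-box targets, gave r 0.51 (exact permutation p = 0.196, adjusted p = 0.823; rho 0.62, exact p = 0.115). Within a group, 4 libraries are too few for a value of their own.

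**Figure D3:**
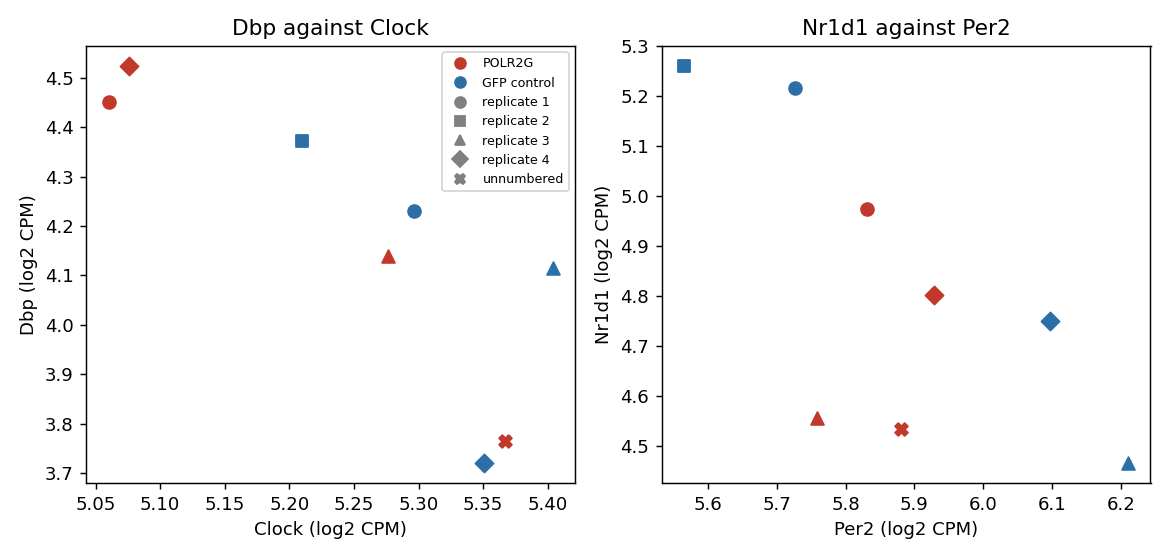
Dbp against Clock and Nr1d1 against Per2 in log2 CPM, 1 point per library, POLR2G in red and GFP control in blue with the marker giving the replicate number. The 2 highest Dbp values lie at the 2 lowest Clock values, all POLR2G, and the 2 highest Nr1d1 values, both GFP control, lie at the 2 lowest Per2 values.

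As a summary of both sides of the loop, log2 CPM was centred on each gene's mean over the 8 libraries and averaged. The 3 tested genes Arntl, Clock and Nfil3 formed one side and the 4 tested genes Nr1d1, Dbp, Per1 and Per2 the other. The difference between the sides was −0.057 in POLR2G replicate 1, 0.50 in the unnumbered library, −0.15 in replicate 3 and −0.35 in replicate 4. In GFP control replicates 1 to 4 it was −0.10, 0.17, 0.048 and −0.053. The group means lay at −0.015 for POLR2G and 0.015 for GFP control, with SDs of 0.36 and 0.12 for the same groups, so the spread between POLR2G libraries was wider than the gap between groups. The unnumbered POLR2G library and POLR2G replicate 4 stood at opposite ends. These values describe the libraries and were not tested, and one of the genes, Arntl, varied by less than counting error. Per1, the gene that spread most, has a large part in them. In the unnumbered POLR2G library it lay at −1.13, where its side averaged −0.45. In POLR2G replicate 4 it lay at 0.35, where its side averaged 0.19.

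**Figure D4:**
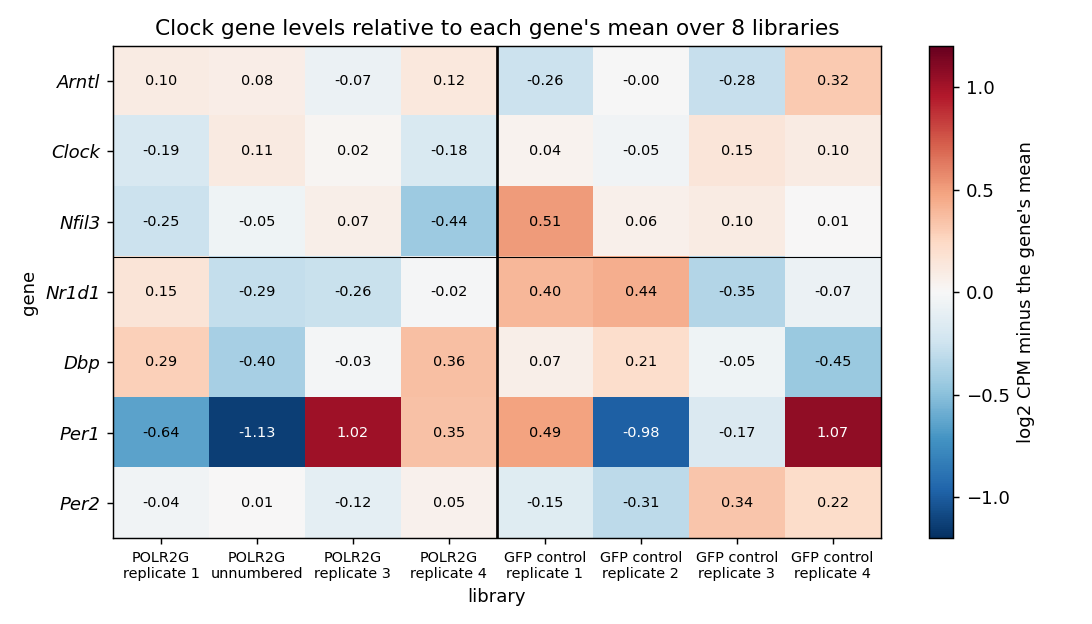
Log2 CPM of each gene minus its mean over the 8 libraries, POLR2G libraries left of the black line and GFP control libraries right of it, with Arntl, Clock and Nfil3 above the thin line and Nr1d1, Dbp, Per1 and Per2 below it. Per1 has the widest colours, from −1.13 in the unnumbered POLR2G library to 1.07 in GFP control replicate 4, and no row separates the groups.

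The paralogs and partners of these genes gave no call either. Of 10 other core loop genes 7 were tested, 5 with a higher and 2 with a lower mean, and edgeR called 0 of them, with 0 at an unadjusted p under 0.05 and 0 called by DESeq2 or limma-voom (median log2 fold change 0.061). The narrowest interval was that of Nr1d2, the paralog of Nr1d1, at 135 ± 4.61 CPM in POLR2G and 129 ± 9.86 CPM in GFP control libraries (log2 fold change 0.061, 95% interval −0.098 to 0.22). The PAR-domain relatives of Dbp were close to even, with Tef at 280.0 ± 33.7 CPM in POLR2G and 267 ± 21.4 CPM in GFP control libraries and Hlf at 78.8 ± 12.5 and 78.4 ± 9.96 CPM in the same groups. Rora, an activator of Arntl, measured 1.63 ± 0.292 CPM in POLR2G and 2.04 ± 0.431 CPM in GFP control libraries (log2 fold change −0.33, edgeR adjusted p = 0.820). Ciart, a repressor of the ARNTL pair, measured 22.3 ± 7.29 CPM in POLR2G and 23.2 ± 3.01 CPM in GFP control libraries, and Cry2 0.848 ± 0.527 and 0.768 ± 0.443 CPM in the same groups. Rorb, Bhlhe40 and Bhlhe41 had too few counts to be tested, with at most 18 in a library.

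Kinases, ubiquitin ligases and cofactors that act on clock proteins numbered 15, of which 14 were tested. Means were higher for 5 and lower for 9, and the median log2 fold change was −0.094. EdgeR and DESeq2 called 0, and 2 of the 14 had an unadjusted edgeR p under 0.05, both lower, where 8.3% of all genes tested passed and 4.1% passed lower. Ncor1, the corepressor that NR1D1 recruits, was at 39.8 ± 2.82 CPM in POLR2G and 49.3 ± 8.22 CPM in GFP control libraries (a log2 fold change of −0.31, SE 0.115; edgeR adjusted p = 0.495), and the log2 fold change was −0.19 without GFP control replicate 2. Btrc, a ligase subunit that targets PER proteins, was at 7.44 ± 1.18 CPM in POLR2G and 9.54 ± 1.06 CPM in GFP control libraries (a log2 fold change of −0.36, SE 0.156; edgeR adjusted p = 0.591).

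Of 17 liver genes under clock control, all tested, 6 had a higher and 11 a lower mean (median −0.032 on the log2 scale), and edgeR and DESeq2 called 0. At an unadjusted p under 0.05 there were 2 higher and 1 lower of the 17, where 4.2% of all genes tested passed higher and 4.1% lower. Nampt, the NAD salvage enzyme that feeds back on the clock, measured 142 ± 15.9 CPM in POLR2G and 189 ± 36.8 CPM in GFP control libraries (a log2 fold change of −0.42, SE 0.138; edgeR adjusted p = 0.451). Nudt7, a peroxisomal coenzyme A hydrolase, measured 335 ± 50.5 CPM in POLR2G and 224 ± 56.4 CPM in GFP control libraries (a log2 fold change of 0.58, SE 0.181; edgeR adjusted p = 0.419).

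Signals that reset the liver clock were read from 4 lists, and edgeR called no gene in any of them, while DESeq2 called Pdk4, Dusp1 and Myc among the 135 genes (1.41%) it called in all. Of 9 glucocorticoid targets, 4 had a higher and 5 a lower mean (median −0.25), with 0 at an unadjusted p under 0.05 and 0 called by DESeq2. Those with the smallest p were Fkbp5, a chaperone of the receptor (−0.61, SE 0.449), and Klf9, a transcription factor (0.10, SE 0.100). Fkbp5 rested on single libraries, at −0.14 without GFP control replicate 3 and −0.996 without POLR2G replicate 3, and Klf9 was at 0.034 without GFP control replicate 4. Of 10 cAMP and fasting genes, 3 had a higher and 7 a lower mean (median −0.23), and 2 of the 10 had an unadjusted p under 0.05, both lower, against 4.1% of all genes. They were Ppargc1a, a coactivator of fasting genes that also acts on Arntl (−0.48, SE 0.134, edgeR adjusted p = 0.360), and Pdk4, a kinase that blocks pyruvate use (−1.25, SE 0.341, edgeR adjusted p = 0.357; DESeq2 adjusted p = 0.0468), which was at −0.83 without GFP control replicate 3.

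Body temperature also sets the liver clock. Of 8 temperature-linked genes 7 were tested, 2 with a higher and 5 with a lower mean (median −0.16), and 1 of the 7 had an unadjusted p under 0.05, against 8.3% of all genes. This was Hspa1a, an inducible heat shock gene, at 3.70 ± 1.74 CPM in POLR2G and 7.41 ± 2.59 CPM in GFP control libraries (edgeR adjusted p = 0.513). Hsph1, a cochaperone, came next (−0.26, SE 0.171, edgeR adjusted p = 0.755), at −0.11 without POLR2G replicate 1 and −0.15 without GFP control replicate 4. Of 12 immediate early genes 10 were tested, 9 with a higher and 1 with a lower mean (median 0.70), and 3 higher and 1 lower of the 10 had an unadjusted p under 0.05, against 4.2% higher and 4.1% lower of all genes. Dusp1, a MAP kinase phosphatase, had a log2 fold change of 1.44 (SE 0.208, edgeR adjusted p = 0.0826; DESeq2 adjusted p = 4.53e-08) and Myc of 1.59 (SE 0.429, edgeR adjusted p = 0.350; DESeq2 adjusted p = 0.0138). Values in this and the preceding paragraph without a unit are log2 fold changes of POLR2G over GFP control.

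The wide range of Per1 was set beside these inputs. Its level was correlated with each of the 19 glucocorticoid and cAMP genes over the 8 libraries, a choice made after the values of Per1 were seen. None passed after adjustment over the 19, and 3 passed at an unadjusted exact p under 0.05 by Pearson and 2 of these by Spearman, all positive. They were Zbtb16, a glucocorticoid-induced transcription factor (r 0.83, exact permutation p = 0.0162, adjusted p = 0.154; rho 0.79, exact p = 0.0279, adjusted p = 0.365), Tsc22d3, also called GILZ (r 0.81, exact permutation p = 0.0140, adjusted p = 0.154; rho 0.74, exact p = 0.0458, adjusted p = 0.365), and Pck1, the gluconeogenic enzyme (r 0.72, exact permutation p = 0.0444, adjusted p = 0.281; rho 0.67, exact p = 0.0831, adjusted p = 0.365). Without the 2 libraries farthest from the Per1 median r was 0.61, 0.58 and 0.36 for these genes in the same order. For deviations from the group means it was 0.83, 0.86 and 0.80. Over the 19 genes r ran from −0.58 for Crem, a cAMP-responsive factor, to 0.83, and among the glucocorticoid targets the lowest was Klf9 with −0.31.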

How the data were processed

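The deposited table holds estimated counts per gene as whole numbers for 8 libraries, not normalized, per the file headers and values. The submitters' processing notes name Salmon 1.2.1, GRCm38 and mm10 without saying what each was used for. The annotation and how transcripts were combined were not given in the sources used here. Symbols matched 20817 of 20894 identifiers (GENCODE M21), which also gave the GRCm38 coordinates, counted from 1. POLR2G was compared with GFP control (4 libraries each) in edgeR 4.0.16 under R 4.3.3, with TMM scaling, filterByExpr (minimum count 10, minimum total 15) and a two-sided quasi-likelihood test, with p-values adjusted by Benjamini-Hochberg over 10390 genes. The SE is the fold change divided by the square root of F, and intervals use its t distribution. Exact two-sided permutation tests over 70 arrangements used log2 CPM with a prior count of 2. Correlations used exact permutation of the pairings. No 2 libraries of a group were duplicates, as the chi-square of their counts was 12.9 to 127 per degree of freedom. Alternatives were RLE, upper quartile or total scaling, other filters, DESeq2 1.42.0, limma-voom (limma 3.58.1), a replicate block and each library left out. The steps were tested on simulated data. The 10 genes and all lists were chosen with earlier results of these data known. The genes named are all 10, the 2 of each list with the smallest p, and the 5 most alike and most opposite to Arntl and Dbp. Sphk2, Thra, Actb, Nr1d2, Tef, Hlf, Ciart, Cry2 and the genes set beside Per1 were named after their values were seen. One gene of these lists is not reported here.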

Additional observations from a re-analysis of the deposited data

Results flagged for a closer look

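In 3 of 42 groups of 4 libraries, over the 21 genes examined, 1 library stood apart from the other three by Dixon's criterion on log2 CPM, where chance gives about 1 in 20. Ncor1 measured 61.6 CPM in GFP control replicate 2, against 44.2 to 45.9 CPM in the other GFP control libraries. Nudt7 measured 260 CPM in POLR2G replicate 3, against 358 to 365 CPM in the other POLR2G libraries. Hsph1 measured 89.2 CPM in GFP control replicate 4, against 67.0 to 69.5 CPM in the other GFP control libraries. No library of the 7 tested clock genes stood apart in this way.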

How the results depend on the processing

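The 7 clock genes stayed uncalled in each alternative run. The count over all genes, 4 in the main test, was 135 with DESeq2 and 1 with library totals only, and 1 to 6 when 1 library was left out. It was 1 without POLR2G replicate 1 or 4, and 2 without the unnumbered POLR2G library or GFP control replicate 2. With library totals only the call was higher, against 2 higher and 2 lower, and at an unadjusted p under 0.05 the split was 180 higher and 761 lower, against 436 and 426. When 1 library was left out, Per1 ranged from −0.63 to 0.24 and Per2 from −0.17 to 0.036 in log2 fold change. For deviations from the group means, POLR2G and GFP control libraries of the same number gave r 0.064, −0.025 and 0.036. Those of different number, or with the unnumbered library, gave −0.064 to 0.051. So few values cannot decide whether the numbers pair libraries. A replicate block over the 6 libraries with shared numbers called 2 genes, against 1 in the same 6 without the block, a fit chosen after seeing the data, and 0 clock genes. Counts were few for Arntl, and at or near 0 for Npas2 and Cry1. Whether depth, the transcripts covered or a low level in these livers underlies this was not tested.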

Other observations

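The genes whose log2 CPM ran most like Arntl over the 8 libraries, among 8318 searched, were Ly6a (r 0.94), Amt (0.94), Prss53 (0.94), Hmg20b (0.91) and Fam198a (0.90). The most opposite were Bcl10 (r −0.99), Dstn (−0.98), Kdm7a (−0.98), Znhit6 (−0.95) and Osbpl9 (−0.94). For Dbp the most alike were Hist3h2a (r 0.95), Erp29 (0.93), Jade2 (0.93), Fbxo46 (0.92) and Ajuba (0.91), and the most opposite Sacm1l (r −0.92), Atg9a (−0.89), Rai1 (−0.89), Rarb (−0.88) and Ptgs1 (−0.88). The clock genes chosen here were left out of that search, as were genes of low level. Only other core loop genes could therefore be among these 20, and none is. The r values are the extremes of a search over many genes in few libraries that share depth and scaling, and are given as a description. For Arntl they carry little, since its spread between libraries was below counting error.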
